A study of Mus musculus with 76 samples.

Results

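Actins and the contractile genes of smooth muscle were followed in liver and visceral white adipose tissue (WAT) of female mice that carry either of 2 versions of Fnip2, the gene for folliculin-interacting protein 2, a partner of folliculin in nutrient sensing through mTORC1. The members were taken by gene symbol, from a group put together with earlier results of these data known, and are 10 genes, which are Actb, Actg1, Acta2, Actg2, Tagln, Myh11, Cnn1, Mylk, Myl9 and Tpm2. All 10 had a row in the WAT table, which has 18964 rows, and in the liver table, which has 16775. The Fnip2C/C mice are CRISPR knock-ins on a C57BL/6 background, homozygous for a T-to-C change in the 3′ untranslated region of Fnip2 that lies beside a G-to-C change made to remove the guide's PAM. The Fnip2T/T mice are wild type at this site and serve as controls. All mice were fed chow ad libitum, and the labels of these libraries give no age. WAT came from 4 Fnip2C/C mice (590, 593, 599 and 638) and 5 Fnip2T/T mice (607, 608, 609, 657 and 658), and liver from 5 Fnip2C/C mice (590, 591, 592, 638 and 639) and 5 Fnip2T/T mice (607, 608, 657, 658 and 659). Both tissues were available from 6 mice.

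Actin is the subunit of the thin filament. Actb and Actg1 encode the cytoplasmic β and γ actins that nearly every cell makes, while Acta2 and Actg2 encode the smooth muscle α and γ actins, found in vessel walls and in the muscle coats of hollow organs. Smooth muscle contracts when myosin, built on the heavy chain from Myh11 with the regulatory light chain from Myl9, is phosphorylated by the myosin light chain kinase from Mylk. Calponin (Cnn1), transgelin (Tagln, also known as SM22α) and β-tropomyosin (Tpm2) bind the actin filament. In adipose tissue and liver, cells of this kind belong mainly to blood vessels, and activated fibroblasts and hepatic stellate cells can also make Acta2. Many of these genes are textbook targets of serum response factor (SRF) and its coactivators of the myocardin family, which act through the CArG box, a short A/T-rich element. β-actin is also a common reference gene for RT-qPCR, the use it had for Fnip2 in this study.

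The 4 actins are alike in their coding sequence. The last 30 coding bases of their transcripts are given to mark how little separates them there, with capitals at the 6 positions at which the 4 differ (GENCODE vM21, GRCm38, stop codon included).
Actb: ccctccatCgtGcacCgCaaGtgcttctaG
Actg1: ccctccatCgtCcacCgCaaAtgcttctaG
Acta2: ccctccatCgtCcacCgCaaAtgcttctaA
Actg2: ccctccatTgtCcacAgGaaAtgcttctaA
These stretches lie on the minus strand at chr5:142903798-142903827, chr11:120346390-120346419, chr19:34241667-34241696 and chr6:83512985-83513014. Within them Actg1 and Acta2 differed at 1 base and Actb and Actg2 at 6. Over the 1128 coding bases that could be set side by side from the stop codon, Actb and Actg1 were 88.7% identical, Acta2 and Actg2 84.0%, and Actg1 and Acta2 81.6%. The libraries were read from the 3′ end of poly(A) RNA, and there the actins shared no exact window of 50 bases with each other. None of the 451 windows of 50 bases in the last 500 bases of Acta2, Actg1 or Actg2 occurred in an annotated transcript of another gene, whereas 42 windows of Actb also occurred in Lrrc58 and 59 windows of Tagln in Pcsk7, which runs on the other strand through the same locus.

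The RefSeq promoter table (GRCm38.p6, 250 bases before to 50 after the start) held 6 of the 10 genes, which are Myl9, Tpm2, Cnn1, Actg1, Mylk and Acta2. The CArG box was searched on both strands as CC, then 6 bases of A or T, then GG, with no mismatch allowed. It was found in 2 of the 6, and over all 27025 genes of the table in 1.81%. Boxes with a mismatch were not searched, so a promoter without a hit may still hold one. The stretches around these boxes are shown because the element is the textbook binding site of SRF, with the box in capitals.
Myl9 promoter: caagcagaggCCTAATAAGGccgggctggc
Actg1 promoter: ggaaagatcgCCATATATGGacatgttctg
They lie at chr2:156775293-156775322 on the plus strand and chr11:120348566-120348595 on the minus strand, and the boxes start 161 and 90 bases before the start sites.

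The WAT libraries held 4180209 to 6277644 reads assigned to genes and the livers 5583041 to 7523200, as recovered from the deposited normalized counts, which are reads divided by a size factor for each library. Adipocyte genes were abundant in WAT, with a summed normalized count over 10 markers of 73420 to 232500 in Fnip2C/C and 115000 to 205700 in Fnip2T/T mice, and the sum over 8 hepatocyte markers in liver was 621700 to 827400. In WAT, genotypes differed in 4111 of 12798 tested genes, or 32.1%, whereas in liver the same limma test called 0 of 11710, with 231 genes at an unadjusted p under 0.05 and no gene called by edgeR or DESeq2. One WAT library stood apart, since the summed count of 10 ovary markers was 24740.6 in Fnip2C/C mouse 593 against 200.4 to 442.7 in the other 8. The 12 striated muscle markers reached 3418.1 in Fnip2T/T mouse 609 against 58.5 to 285.6 in the others.

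Actb was the most abundant of the 10 genes in both tissues. Because each read stands for the 3′ end of a transcript, counts of different genes were set side by side as RPM, which scales the reads assigned to genes to the same total in every library, with no correction for length. In WAT the median was 7963.8 RPM for Actb, 1484.5 for Mylk, 580.2 for Myl9, 347.4 for Tpm2, 343.6 for Myh11, 265.7 for Cnn1, 212 for Acta2, 173.8 for Tagln, 57.16 for Actg2 and 2.784 for Actg1. The ranges over the 9 libraries of neighbours in this order overlapped, except between Actb and Mylk and between Actg2 and Actg1. Actg1 stood at 5 to 29 reads per WAT library and 2 to 16 per liver, far below Actb. Its counts are uncertain, since the handling of reads that align to several places is not given in the sources used here. Gapdh, another reference gene, was also low and averaged 13.01 ± 6.194 (SD, n = 4) in Fnip2C/C and 11.49 ± 7.687 (n = 5) in Fnip2T/T WAT.

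Liver had far fewer reads of the smooth muscle genes, other than Mylk. The medians over 10 livers were 1897.3 RPM for Actb and 239.2 for Mylk, followed by 6.793 for Acta2, 6.724 for Myl9, 6.678 for Tpm2 and 2.048 for Myh11. Actg1, Tagln, Cnn1 and Actg2 had medians under 1. The ranges of neighbours over the 10 libraries overlapped except between Actb and Mylk and between Mylk and Acta2. In each of the 6 mice with both tissues, all 10 genes had a higher RPM in WAT than in liver. The tables were normalized separately, and the tissues were not tested against each other.

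The first comparison asked whether the genotype changed these genes in WAT. Acta2 fell in Fnip2C/C WAT while Tagln, Tpm2 and Myl9 rose, and the other 6 genes did not pass the test. Thus 4 of the 10 were called, against 32.1% of all genes tested. Of these, 3 were higher in Fnip2C/C, against 15.1% of all genes, and 1 was lower, against 17%. These shares lie near the background. At an unadjusted p under 0.05 there were 5 members, the fifth being Cnn1, against 43.9% of all genes. The median log2 difference over the 10 was 0.87. P-values are from limma with Benjamini-Hochberg adjustment over all 12798 genes, and errors of log2 differences are standard errors.

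**Figure D1:**
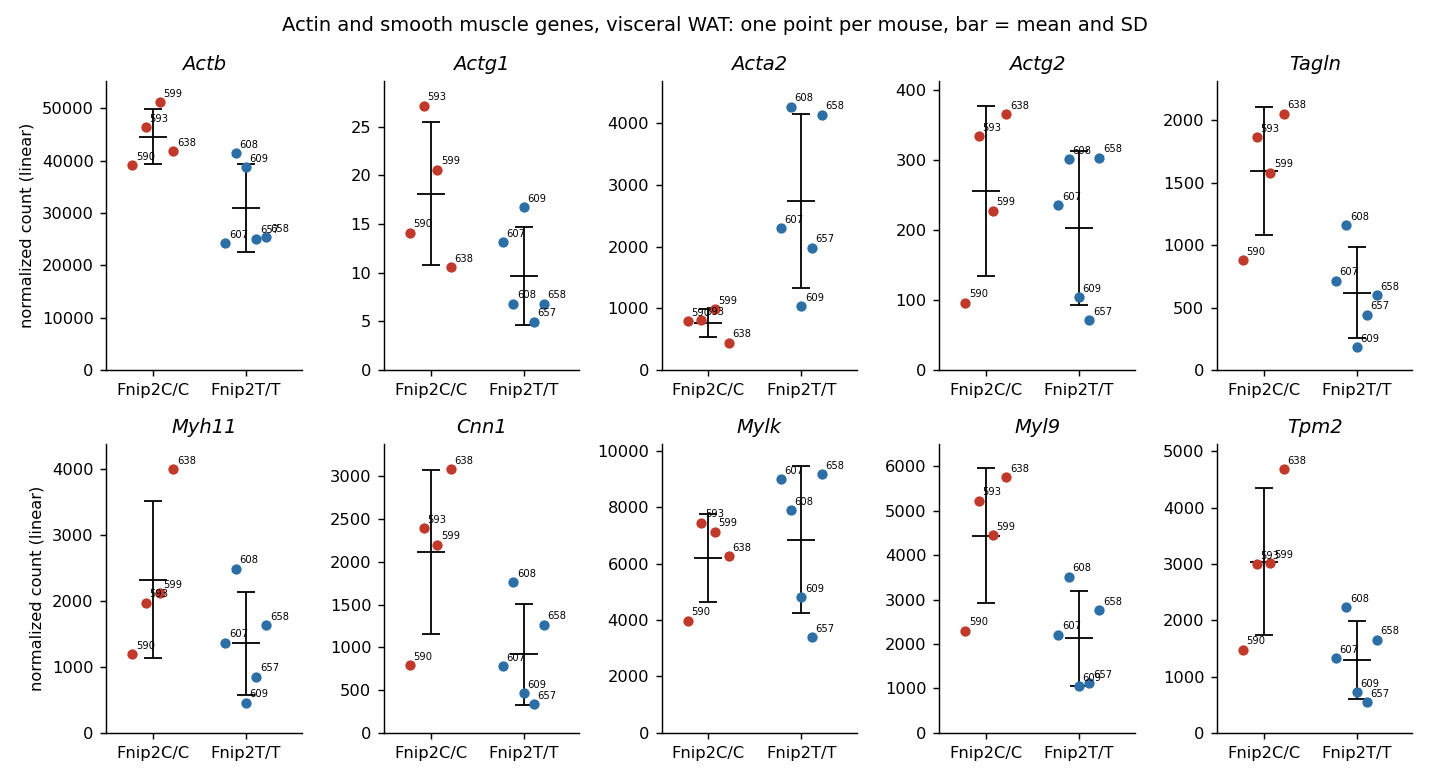
Normalized count (y axis, linear, each gene on its own scale) of the 10 genes in visceral WAT of 4 Fnip2C/C mice (red) and 5 Fnip2T/T mice (blue), with 1 point per mouse labelled by its number and bars for mean and SD. Acta2 is the gene whose genotypes do not overlap, with 446 to 985 in Fnip2C/C and 1033 to 4262 in Fnip2T/T mice.

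Acta2, the actin most used as a marker of smooth muscle and of activated fibroblasts, was the member with the lowest p. Its normalized count was 792, 809, 985 and 446 in Fnip2C/C mice 590, 593, 599 and 638, and 2293, 4262, 1033, 1981 and 4132 in Fnip2T/T mice 607, 608, 609, 657 and 658. Every Fnip2C/C value lay below every Fnip2T/T value, although mouse 609 was close to mouse 599. The means were 757.9 ± 225.5 (SD, n = 4) and 2740 ± 1409 (n = 5), and the log2 difference was -1.73 ± 0.39 (adjusted p = 0.00591). It was the single member whose genotypes did not overlap, which 26.1% of all tested genes did. Acta2 stayed past the threshold with each mouse left out, at log2 differences of -2.036 to -1.494.

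The other smooth muscle actin, Actg2, did not go the same way. Its counts were 96.4, 334, 228 and 365 in Fnip2C/C mice 590, 593, 599 and 638, and 235, 301, 104, 71.4 and 303 in Fnip2T/T mice 607, 608, 609, 657 and 658. The genotypes overlapped almost fully, with a log2 difference of 0.39 ± 0.49 (adjusted p = 0.571).

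Transgelin showed the largest rise among the 10. Tagln counted 881, 1862, 1580 and 2052 in Fnip2C/C mice 590, 593, 599 and 638 against 716, 1162, 182, 445 and 599 in Fnip2T/T mice 607, 608, 609, 657 and 658. In 3 of the 4 Fnip2C/C mice it lay above all controls, and mouse 590 lay below control mouse 608. The log2 difference was 1.53 ± 0.44 (adjusted p = 0.020). Part of the Tagln locus is shared with Pcsk7 on the other strand, and the normalized count of Pcsk7 itself was 18.98 to 60.91 in the WAT libraries. Whether strand was used in counting is not given in the sources used here.

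Tpm2 and Myl9, which encode the β-tropomyosin and the regulatory light chain, also rose. Tpm2 stood at 1478, 2992, 3009 and 4682 in Fnip2C/C mice 590, 593, 599 and 638 and at 1324, 2228, 726, 542 and 1653 in Fnip2T/T mice 607, 608, 609, 657 and 658, a log2 difference of 1.30 ± 0.42 (adjusted p = 0.0323). Myl9 stood at 2305, 5224, 4456 and 5762 against 2213, 3519, 1052, 1113 and 2760 in the same order of mice, a log2 difference of 1.14 ± 0.39 (adjusted p = 0.0391). For both genes, 3 of the 4 Fnip2C/C mice exceeded all 5 controls and mouse 590 lay within the control range. These calls depend on single libraries. Without mouse 593, whose ovary genes stood apart, or without mouse 638, Acta2 was the 1 member called, and Tagln had an adjusted p of 0.0538 without mouse 593 and 0.0759 without mouse 638. Without mouse 599, 609 or 657, Acta2 and Tagln were the 2 members called. With any 1 mouse left out, 3010 to 4273 genes were called in all. The ovary list itself had no called gene among 7 tested. That test could hardly call a signal held by mouse 593, which widens the spread within Fnip2C/C, as for Cyp11a1 (mean 3768.3 ± 7533.4, SD, n = 4). It does not show that the members' calls were free of this library.

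Cnn1, Myh11 and Mylk did not pass the test. Cnn1, the calponin gene, stood at 795, 2393, 2202 and 3083 in Fnip2C/C mice 590, 593, 599 and 638 and at 782, 1760, 463, 337 and 1264 in Fnip2T/T mice 607, 608, 609, 657 and 658, with a log2 difference of 1.30 ± 0.50 (adjusted p = 0.0634). Myh11, the smooth muscle myosin heavy chain, stood at 1194, 1977, 2124 and 4005 against 1367, 2493, 461, 853 and 1635 (0.85 ± 0.45, adjusted p = 0.162). Mylk, the kinase that activates the myosin, stood at 3978, 7455, 7131 and 6262 against 8985, 7886, 4815, 3388 and 9178 (-0.08 ± 0.32, adjusted p = 0.864). In Cnn1, 3 of 4 Fnip2C/C mice lay above all controls, in Myh11 1 did, and in Mylk none did.

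The cytoplasmic actins were higher on average in Fnip2C/C WAT without passing the test. Actb counted 39132, 46346, 51157 and 41787 in Fnip2C/C mice 590, 593, 599 and 638 and 24197, 41408, 38785, 25142 and 25356 in Fnip2T/T mice 607, 608, 609, 657 and 658. Control 608 lay within the Fnip2C/C range and control 609 just below it, while the other 3 lay well below. The means were 44606 ± 5287 (SD, n = 4) and 30978 ± 8387 (n = 5), with a log2 difference of 0.56 ± 0.26 (adjusted p = 0.116 with limma and 0.0385 with DESeq2 on the recovered reads). Actg1 had few reads, 9 to 29 in Fnip2C/C and 5 to 16 in Fnip2T/T libraries, and a log2 difference of 0.88 ± 0.44 (adjusted p = 0.145).

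**Figure D2:**
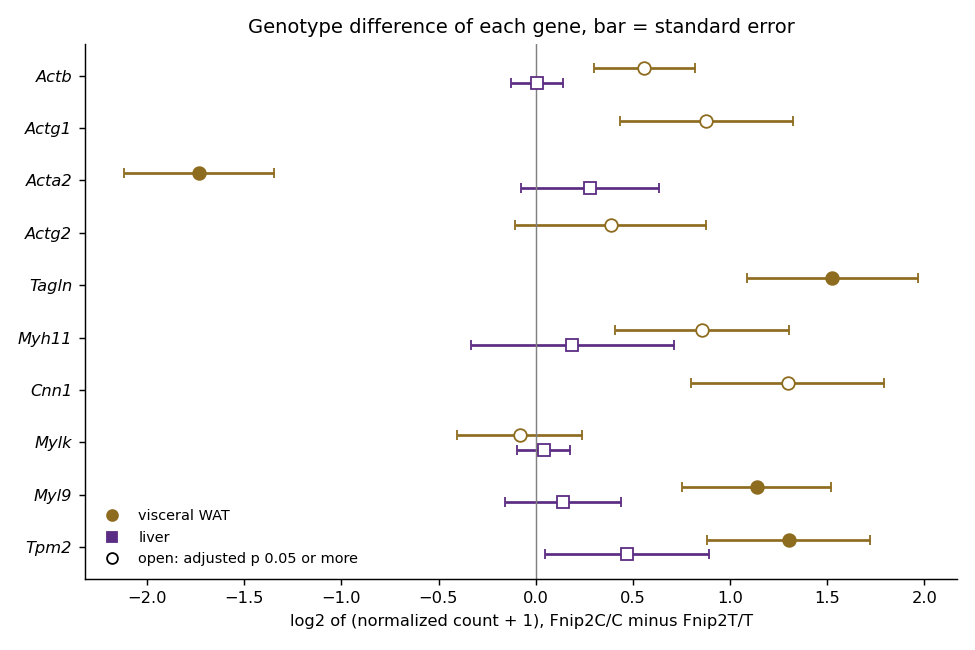
Difference in log2(normalized count + 1) between Fnip2C/C and Fnip2T/T mice (x axis) for each gene (y axis) in visceral WAT (circles) and liver (squares), with standard errors as bars and filled symbols for an adjusted p under 0.05. Acta2 lies at -1.73 in WAT and the other called genes between 1.14 and 1.53, while no liver symbol is filled and 4 genes were too low in liver to test.

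The opposite direction of Acta2 was also seen within each library, where size factors cancel. The log2 ratio of Acta2 to Tagln was -0.15, -1.20, -0.68 and -2.20 in Fnip2C/C mice 590, 593, 599 and 638, and 1.68, 1.88, 2.50, 2.15 and 2.79 in Fnip2T/T mice 607, 608, 609, 657 and 658. Acta2 thus had fewer reads than Tagln in every Fnip2C/C library and more in every control library. The ratio of Acta2 to the mean of the 7 other smooth muscle genes was -2.68 to -0.36 in Fnip2C/C and 0.88 to 1.80 in Fnip2T/T mice. Relative to each of the 9 other members, Acta2 gave non-overlapping genotypes in WAT, which it did relative to 40.1% of the 12797 other genes. These ratios were chosen after the values of Acta2 were seen and carry no test. In liver, the same 9 ratios overlapped between the genotypes.

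**Figure D3:**
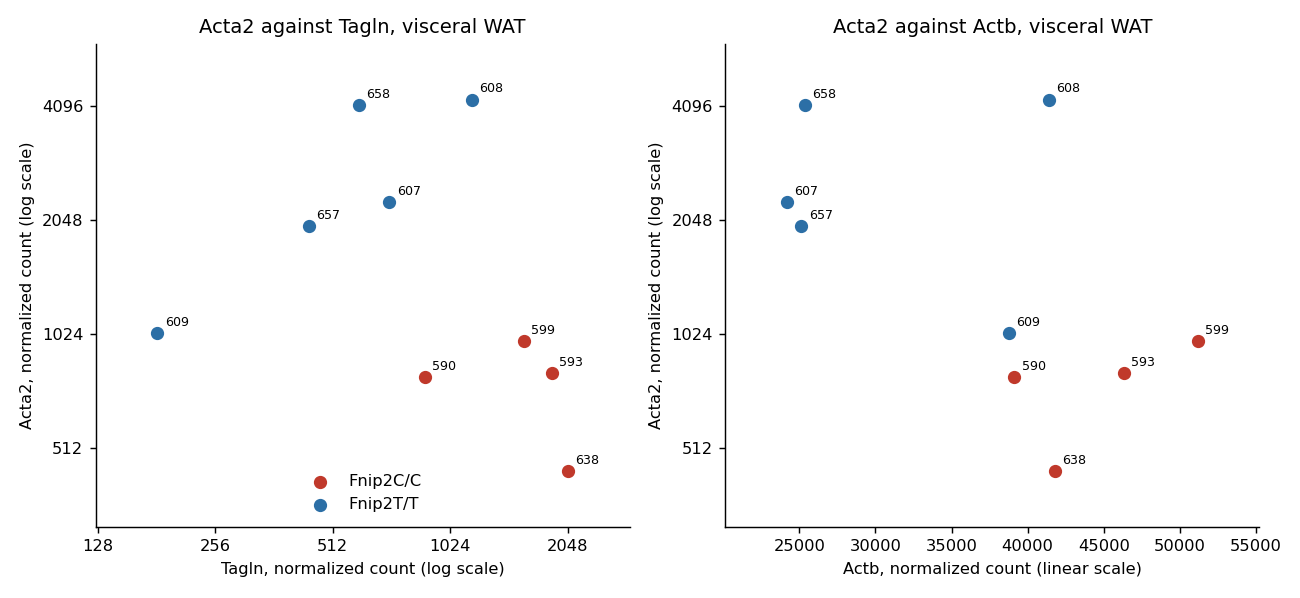
Acta2 against Tagln (left, both axes log scale) and against Actb (right, x axis linear and y axis log scale) in normalized counts, 1 point per WAT library, labelled by mouse. In the left panel the control libraries run from mouse 609 at low counts to mouse 608 at high counts of both genes, and the 4 Fnip2C/C libraries lie below that run.

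Among actin reads, the share of the smooth muscle isoforms differed between the genotypes in WAT. Acta2 and Actg2 together made up 2.22%, 2.40%, 2.32% and 1.90% of the reads of the 4 actins in Fnip2C/C mice 590, 593, 599 and 638. The share was 9.46%, 9.92%, 2.84%, 7.55% and 14.88% in Fnip2T/T mice 607, 608, 609, 657 and 658, where mouse 609 stood close to the Fnip2C/C mice and the other 4 well above. The means were 2.21% ± 0.22 (SD, n = 4) and 8.93% ± 4.35 (n = 5), a difference of -6.72 percentage points (two-sided exact permutation test, p = 0.0159 over 126 groupings). Acta2 alone, as a share of Actb, Actg1 and Acta2, gave -6.717 points (exact permutation p = 0.0159). The share thus restates the level of Acta2 relative to Actb and is no separate result for Actg2. Without any one of the Fnip2C/C mice the difference was -6.785 to -6.618 points and the exact permutation p was 0.0714. Within mice numbered under 610 the difference was -5.10 points and within those over 630 it was -9.31, the latter with 1 Fnip2C/C library. In liver the shares were 0.305% to 1.124% in Fnip2C/C and 0.246% to 0.616% in Fnip2T/T mice, with means of 0.488% ± 0.357 and 0.365% ± 0.148 (n = 5 each, exact permutation p = 0.556).

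Across WAT libraries, the smooth muscle genes other than Acta2 varied together. After each genotype's mean was taken from the log2 values, Pearson's r over the 9 libraries lay between 0.657 and 0.985 for the 21 pairs among Actg2, Tagln, Myh11, Cnn1, Mylk, Myl9 and Tpm2, with a median of 0.893. The pair Cnn1 and Tpm2 had the highest r, 0.985, and Cnn1 and Myl9 had 0.976. Acta2 correlated with these 7 at 0.425 to 0.639, and Actb with the 8 smooth muscle genes at -0.017 to 0.318. The points of such a correlation share their library and its size factor, and r is given as a description. Fnip2C/C mouse 638 was the highest of its genotype for 6 of the 8 smooth muscle genes, and mouse 609 or 657 was the lowest control for all 8, with 4 each.

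The genes whose genotype-centred log2 values were most like those of a member were named by the same r. For Myh11 they were Npnt (0.954), Tmem47 (0.953), Ptn (0.952), Ahcy (0.943) and Tagln (0.938), so that 1 of the 5 was itself a member. For Acta2 they were Sgsm3 (0.936), Katnal1 (0.922), C1galt1c1 (0.920), Maip1 (0.909) and Aopep (0.902), none of them on the smooth muscle lists. For Actb they were Acap3 (0.985), Abcf1 (0.963), Cdk5rap3 (0.957), Fbn1 (0.954) and Cbx5 (0.950). These r rest on the same 9 libraries.

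The same comparison in liver asked whether the genotype changed these genes there. No member was called, nor was any gene (0%, limma), and 6 of the 10 were abundant enough to test. None of the 6 had an unadjusted p under 0.05, against 1.97% of all genes. Actb stood at 12487, 12336, 14265, 11482 and 13803 in Fnip2C/C mice 590, 591, 592, 638 and 639 and at 15520, 10073, 12419, 12208 and 14320 in Fnip2T/T mice 607, 608, 657, 658 and 659. The ranges coincided, with means of 12875 ± 1137 and 12908 ± 2096 (SD, n = 5 each) and a log2 difference of 0.01 ± 0.13 (adjusted p = 1), whose sign changed with the scaling. Mylk was also even, at 1342 to 1812 in Fnip2C/C and 1312 to 2036 in Fnip2T/T mice (0.04 ± 0.14, adjusted p = 1).

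**Figure D4:**
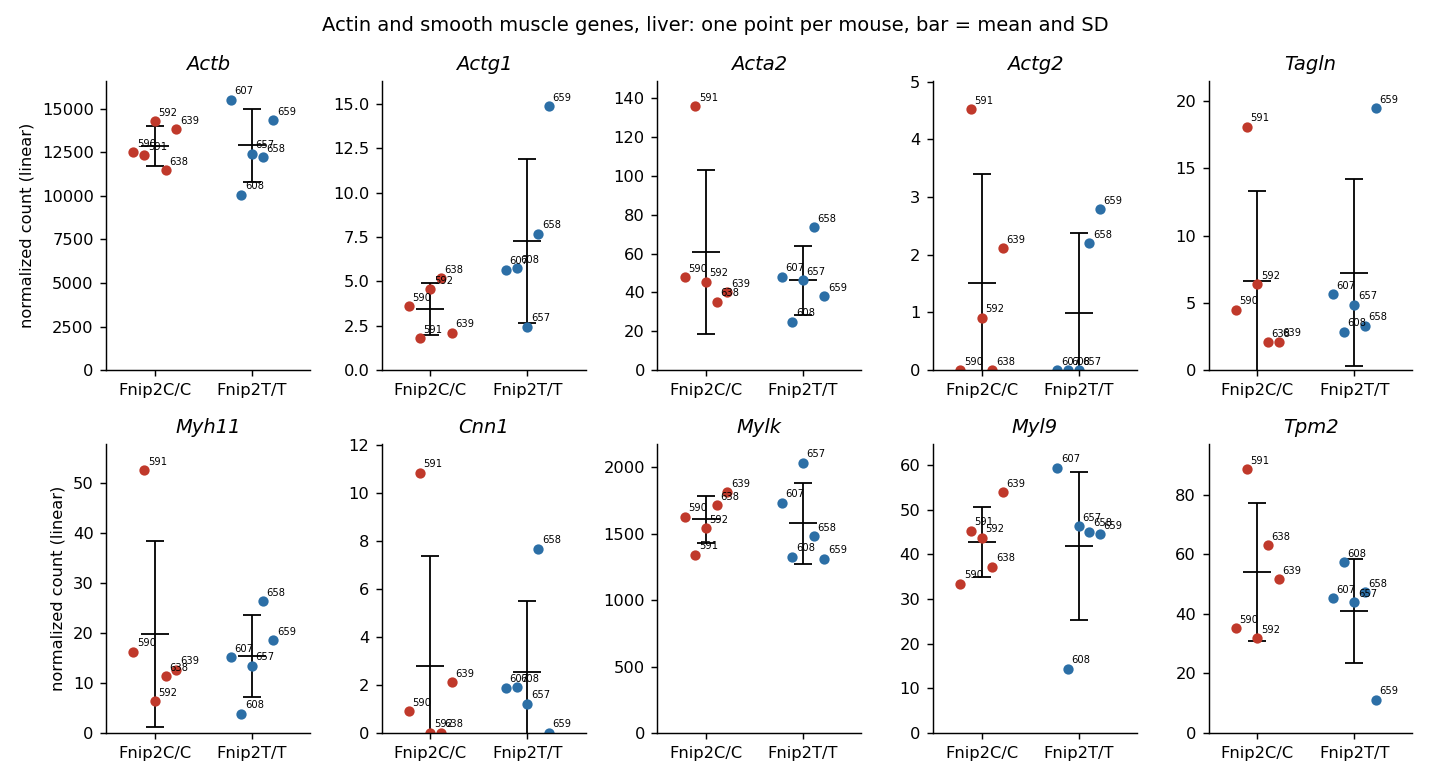
Normalized count (y axis, linear, each gene on its own scale) of the 10 genes in liver of 5 Fnip2C/C mice (red) and 5 Fnip2T/T mice (blue), with 1 point per mouse labelled by its number and bars for mean and SD, drawn from 0 upwards. The genotypes overlap for every gene, and Fnip2C/C mouse 591 is the highest point for Acta2, Actg2, Myh11, Cnn1 and Tpm2.

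The smooth muscle genes of the liver turned on single animals. Acta2 stood at 47.8, 136, 45.6, 35.2 and 40.1 in Fnip2C/C mice 590, 591, 592, 638 and 639 and at 48.1, 24.9, 46.3, 73.6 and 38.1 in Fnip2T/T mice 607, 608, 657, 658 and 659 (log2 difference 0.28 ± 0.35, adjusted p = 1). Mouse 591 was the highest of the 10 livers for 5 of the 8 smooth muscle genes, with 52.5 for Myh11 against 3.82 to 26.4 in the others, and without it the log2 difference of Acta2 was -0.05. Myh11 (0.19 ± 0.52), Myl9 (0.14 ± 0.30) and Tpm2 (0.47 ± 0.42) did not pass the test either (adjusted p = 1 each). In these livers Acta2 and Myh11 varied together (r = 0.880 over 10 libraries), Acta2 and Mylk did not (r = -0.193). Acta2 was most like Gabpb2 (0.943), Paip2 (0.934), Tcf7l2 (0.934), Plekhm2 (0.926) and Cacna1a (0.925), and Actb was most like Dlg5 (0.979), Snx33 (0.956), Ndufa13 (0.948), Nars (0.948) and Gm44836 (0.945).

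The 4 genes below the limit for testing in liver were barely detected. Tagln had 2 to 21 reads, Cnn1 0 to 12, Actg1 2 to 16 and Actg2 0 to 5. Actg2 had no read in 5 livers, and a count of 0 allows 0.399 to 0.537 RPM there, from 3 reads per library. Cnn1 had none in 3 livers. Differences between the genotypes were not tested for these 4, and the limits cover counting error only.

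The third comparison asked whether the genotype effect differed between the tissues. Of the 6 members kept in both tables, Acta2 was called, with an effect in WAT minus that in liver of -2.01 ± 0.58 on the log2 scale (adjusted p = 0.0154). Over all 10404 genes, 29.2% were called. With the mouse number as a replicate block the value for Acta2 was -1.99 (adjusted p = 0.0218). Actb (0.55 ± 0.27, adjusted p = 0.133), Myl9 (1.00 ± 0.54, adjusted p = 0.173), Tpm2 (0.83 ± 0.66, adjusted p = 0.356), Myh11 (0.67 ± 0.80, adjusted p = 0.561) and Mylk (-0.12 ± 0.35, adjusted p = 0.819) were not, so that the rise of Myl9 and Tpm2 in WAT was not shown to differ from liver.

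Actb mattered as a reference as well. The log2 ratio of Fnip2 to Actb in WAT was -10.57, -10.51, -11.14 and -11.44 in Fnip2C/C mice 590, 593, 599 and 638 and -9.45, -10.57, -11.29, -9.17 and -9.97 in Fnip2T/T mice 607, 608, 609, 657 and 658, from 12 to 43 reads of Fnip2 per library. The genotypes overlapped, with a difference of -0.82 (exact permutation p = 0.135 over 126 groupings). Against the mean of 14 reference genes the difference had the opposite sign, 0.41 (exact permutation p = 0.254). In liver, where Fnip2 had 53 to 191 reads, the ratio to Actb was -6.53 to -6.12 in Fnip2C/C and -8.16 to -6.44 in Fnip2T/T mice, a difference of 0.62 (exact permutation p = 0.0238 over 252 groupings), and against the 14 genes it was 0.64 (exact permutation p = 0.00794). Mouse 659 had the lowest ratio to Actb, and without it the difference was 0.3366 (exact permutation p = 0.0317). Without Fnip2C/C mouse 592, 638 or 639 the exact permutation p was 0.0635, 0.0556 and 0.0714. Fnip2 itself was not called in either tissue (log2 difference 0.63 ± 0.23, adjusted p = 1 in liver and -0.27 ± 0.35, adjusted p = 0.58 in WAT). Within liver mice numbered under 610 the ratio to Actb differed by 0.18 and over 630 by 0.99. By RT-qPCR relative to β-actin, in larger groups, the paper found no association of genotype with Fnip2 mRNA in liver or gonadal WAT.

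**Figure D5:**
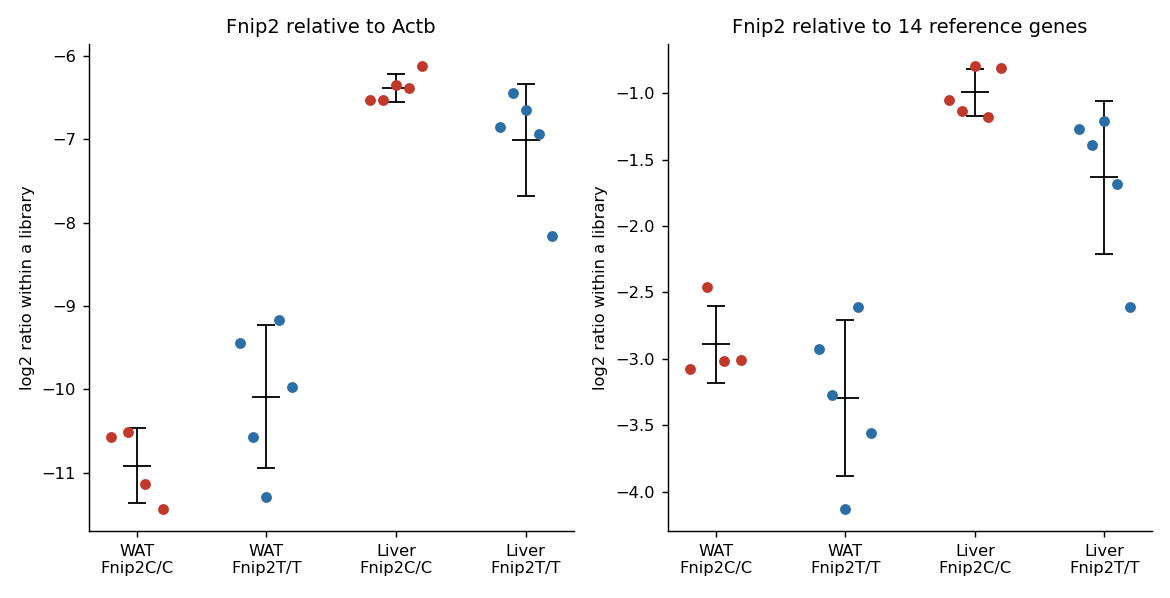
Log2 ratio of Fnip2 to Actb (left) and to the mean of 14 reference genes (right) within each library (y axes), by tissue and genotype (x axes), with 1 point per mouse and bars for mean and SD. In WAT the Fnip2C/C mean lies 0.82 below the Fnip2T/T mean on the left and 0.41 above it on the right, and in liver it lies above on both sides, by 0.62 and 0.64.

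Some other reference genes were unequal between the genotypes in WAT, where Actb itself did not pass the limma test. Of the 14, 1 rose and 6 fell, and 32.1% of all genes were called. Ywhaz rose (0.92 ± 0.22, adjusted p = 0.00793). Among those that fell were B2m (-2.05 ± 0.41, adjusted p = 0.00336), Hprt (-1.05 ± 0.22, adjusted p = 0.00402), Ppia (-1.45 ± 0.33, adjusted p = 0.0063), Rplp0 (-1.34 ± 0.38, adjusted p = 0.0185) and Polr2a (-0.66 ± 0.21, adjusted p = 0.0292). Gapdh, Tbp, Pgk1, Gusb, Tfrc and Sdha did not pass the test, with log2 differences of -0.53 to 0.25. In liver none of the 14 was called, and their median difference was 0.007.

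Other smooth muscle genes followed neither Acta2 nor Tagln as a group. Of 18 tested in WAT, 1 rose and 2 fell, against 32.1% of all genes called, with a median log2 difference of -0.03. Ppp1r14a, an inhibitor of myosin phosphatase, rose from a mean of 252.6 ± 109.5 to 734.7 ± 263.3 (1.55 ± 0.31, adjusted p = 0.00337), while Des, the intermediate filament of muscle, fell (-0.92 ± 0.27, adjusted p = 0.0205), as did Aoc3. The summed count of the 18 was 15400 to 22320 in Fnip2C/C and 14780 to 20390 in Fnip2T/T mice. Of 10 pericyte markers 1 rose and 3 fell, near the 32.1% of all genes called. Cox4i2 rose (0.88 on the log2 scale, adjusted p = 0.0446), and Pdgfrb (-1.94 ± 0.33, adjusted p = 0.00147) and Kcnj8 (-1.56 ± 0.36, adjusted p = 0.00638) were among those that fell. Higd1b, Cspg4, Abcc9 and Notch3 did not pass the test, at log2 differences of 0.27 to 0.80. Neither did Rgs5 and Ndufa4l2, which were lower in Fnip2C/C mice, at -0.68 and -0.66. The 10 markers had a median log2 difference of -0.19, with sums of 1091 to 2202 and 1893 to 2580. No called gene was found among 7 tested markers of uterus and oviduct, organs rich in smooth muscle near this fat depot. Their sums were 691.1 to 1539 and 562.6 to 1363. As for the ovary genes, the test could hardly call a signal held by few libraries, which widens the spread within a genotype. None of the 9 mesothelial markers tested was called either, against 32.1% of all genes. Of these 9, 2 had an unadjusted limma p under 0.05, against 43.9% of all genes. The part of these cells in the members' differences was not tested, and in bulk tissue fewer cells of a type cannot be told apart from less RNA per cell.

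Of SRF and its partners, 2 of 5 tested genes were called, both lower in Fnip2C/C mice, against 32.1% of all genes called and 17% called lower. Srf itself averaged 0.505 ± 0.586 in Fnip2C/C and 1.30 ± 1.88 normalized counts in Fnip2T/T WAT and was not tested, and neither was Fhl2. Elk1, a partner of SRF, fell (-0.96 ± 0.28, adjusted p = 0.0201), and so did Mrtfa, a coactivator released by actin assembly (-1.42 ± 0.51, adjusted p = 0.0496, from means of 45.6 in Fnip2T/T and 16.9 in Fnip2C/C mice). Myocd averaged 10.43 ± 6.757 in Fnip2C/C and 20.19 ± 9.239 in Fnip2T/T mice (adjusted p = 0.14), while Klf4 had a log2 difference of 0.74 ± 0.41 (adjusted p = 0.181) and Mrtfb of 0.14 ± 0.17 (adjusted p = 0.547).

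Of 21 tested genes of actin assembly and turnover in WAT, 5 rose and 9 fell, against 15.1% of all genes called higher and 17% called lower, with a median log2 difference of -0.39. Dstn, which severs filaments, rose (1.73 ± 0.29, adjusted p = 0.00148), whereas Arpc5, a subunit of the Arp2/3 complex that branches them, fell (-1.77 ± 0.27, adjusted p = 0.00101). Of 10 nonmuscle myosin and tropomyosin genes, 1 rose and 2 fell, near the 32.1% of all genes called. Myl12a, a regulatory light chain of nonmuscle myosin, fell from 439.7 ± 225.6 to 72.99 ± 18.13 (-2.41 ± 0.39, adjusted p = 0.00132), and Myh10, a heavy chain, rose (0.63 ± 0.19, adjusted p = 0.0215).

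Of 14 genes of focal adhesions and actin crosslinking, 1 passed the test, against 32.1% of all genes. This was Actn4, a crosslinking α-actinin, with a mean of 848.3 ± 456 in Fnip2T/T and 196.1 ± 61.36 in Fnip2C/C mice (-1.98 ± 0.39, adjusted p = 0.00329), and next to it Actn1 had -0.68 ± 0.25 (adjusted p = 0.0549). Of 9 striated muscle genes tested none was called, and the skeletal actin gene Acta1 varied with mouse 609 (58.6 ± 31.21 against 296.8 ± 419.3, adjusted p = 0.505). In liver, no gene on any of these lists was called.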

How the data were processed

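QuantSeq 3′ mRNA-Seq FWD libraries were made from poly(A) RNA of liver (250 ng) and visceral WAT (500 ng) and sequenced on an Illumina NextSeq. The labels list 76 run samples, 4 per mouse, and each mouse has 1 column in the file of its tissue. The deposited signal values are gene reads divided by a size factor for each library, each table normalized on its own. The submitters' processing notes name FastQC 0.11.9, HISAT2, SAMtools 1.12, HTSeq, DESeq2 and GRCm39, with no role or order. In the WAT file, 1 column has no label and was not used. Groups came from the genotype and mouse number in the labels. Nothing says that libraries of a group shared a litter or batch, and the columns of the liver table are not in the order of the labels' genotypes, so each was matched by its name.

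Every value was a whole multiple of its library's smallest step, and 100% of values lay within 1e-06 of whole reads (largest deviation 1.8e-09). Such reads are not independent molecules. Genes with a mean of at least 10 were tested with limma 3.58.1 (R 4.3.3, eBayes with trend and robust options) on log2(normalized count + 1), Fnip2C/C minus Fnip2T/T, with Benjamini-Hochberg adjustment and a threshold of 0.05. Fold changes are on that scale, which understates changes of low genes. The tissue difference was an interaction contrast over 19 libraries. The same mouse gave both tissues in 6 cases, and the consensus correlation within a mouse was -0.114. Ratios and shares within a library were compared by two-sided exact permutation. Alternatives included pseudocounts of 0.5 and 10, other filters and scalings, and edgeR 4.0.16 and DESeq2 1.42.0 on the recovered reads. Another was a term that split mice numbered below 610 from those above 630, by number alone, since the labels name no batch. Each library was also left out in turn.

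The 10 genes and all lists were chosen with earlier results of these data known. Text names all 10, of each pathway list the 2 genes with the lowest p in WAT, the tested genes of the SRF and reference lists, and the 5 genes most correlated with Acta2, Myh11 and Actb in WAT and with Acta2 and Actb in liver. Aoc3, Acta1, the pericyte genes and the genes of the closing section were added after their values were seen. Some genes and 1 list that this rule covers are not reported here. Positions and sequences are from GENCODE vM21 and RefSeq (GRCm38), not the build of the notes.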

Additional observations from a re-analysis of the deposited data

Results flagged for a closer look

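The liver library of Fnip2C/C mouse 591 stood far from the others of its group. Its normalized counts of Acta2 (135.8), Tagln (18.1), Myh11 (52.49) and Cnn1 (10.86) and its smooth muscle share of actin reads (1.124%) each lay beyond Dixon's 95% limit for 5 values. In Fnip2T/T livers the same held for Tagln in mouse 659 (19.49), for Cnn1 in mouse 658 (7.686) and for the log2 ratio of Fnip2 to Actb in mouse 659 (-8.157). These are 8 of 52 groups of 4 or 5 libraries examined. Chance would give about 1 in 20 if the groups were independent and their values normally distributed. Several flags share mouse 591 and related measures, and Tagln and Cnn1 had few reads in liver. An excess over chance is therefore not shown. No WAT group was among them.

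The genotype effect on Acta2 differed between WAT and liver by -2.01 on the log2 scale (limma interaction, adjusted p = 0.0154). Acta2 was lower in 4 of 4 Fnip2C/C WAT libraries than in any control, while the liver genotypes overlapped.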

How the results depend on the processing

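In WAT, 4 members were called, 2 with quantile normalization, 6 with DESeq2 and 3 with edgeR or with libraries scaled to the same total, and 1 to 5 with 1 mouse left out. All these sets held Acta2. Over all genes, 4111 were called in WAT, 3196 to 4722 with the alternatives and 3010 to 4273 with 1 mouse left out. No liver alternative called a member or any other gene. For the tissue difference, 1 to 2 members were called with a library left out, where 2451 to 3435 genes were called in all. With the mouse number as a replicate block Acta2 was called, and 2753 genes were called in all against 3033 without it. The pairing changed no other call of a member. The log2 difference of Actb in liver turned to -0.0025 with equal totals, -0.0214 with quantile normalization, -0.0105 with edgeR and -0.0056 with DESeq2, none of them called. With a library left out, log2 differences that were not called changed sign, for Mylk from -0.3103 to 0.1183 in WAT, from -0.0205 to 0.1378 in liver and from -0.3511 to 0.0776 between the tissues, and in liver for Actb from -0.0781 to 0.0778, Acta2 from -0.0541 to 0.4665, Myh11 from -0.2396 to 0.4747 and Myl9 from -0.1982 to 0.2964. The WAT ratio of Fnip2 to Actb became 0.4072 with 14 reference genes and -1.868 within mice over 630, and lay between -1.124 and -0.5949 with a mouse left out. The WAT smooth muscle share differed by -8.242 to -5.232 points with a mouse left out, and with a Fnip2C/C mouse removed p rose to 0.0714 at 3 libraries against 5. The liver Fnip2 ratio lay between 0.3366 and 0.7647 (exact permutation p of 0.00794 to 0.0714), and the liver share between -0.0363 and 0.1855. Counts of reads limit Actg1 in both tissues and Actg2, Tagln and Cnn1 in liver.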

Other observations

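Some subunits of the same complex were called in opposite directions in WAT, where 15.1% of all genes were called higher and 17% lower. C1qa, which encodes a chain of the complement protein C1q, rose (1.06 ± 0.27, adjusted p = 0.0106) while C1qc, a second chain, fell (-1.70 ± 0.21, adjusted p = 0.000508), and the third chain, C1qb, had 0.28 ± 0.26 (adjusted p = 0.429). Among subunits of the Arp2/3 complex, Arpc2 (0.87 ± 0.18, adjusted p = 0.00389) and Arpc4 (0.59 ± 0.21, adjusted p = 0.0454) rose while Arpc1b (-0.94 on the log2 scale, adjusted p = 0.00876), Arpc3 (-0.86 ± 0.25, adjusted p = 0.019) and Arpc5 fell. Its subunits Actr2 (0.44 ± 0.20, adjusted p = 0.111) and Actr3 (-0.39 ± 0.18, adjusted p = 0.102) were not called. These genes were picked after their values were seen, and whether such splits are more common than among other genes was not tested. P-values are from limma with 4 and 5 libraries.

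Of 10 adipocyte markers, 7 fell and none rose in Fnip2C/C WAT, against 17% of all genes called lower and 32.1% called in all, with a median log2 difference of -1.16. Plin1 (-1.65 ± 0.34, adjusted p = 0.00385) and Lep (-1.87 ± 0.44, adjusted p = 0.00769) were among them. Cfd, Cidec and Adrb3 were not called, at log2 differences of 0.53 ± 0.39, -0.19 ± 0.30 and -0.34 ± 0.32. The summed count of the list overlapped between the genotypes, but Cfd weighed most in it. Cfd averaged 127997 in Fnip2C/C and 85213 in Fnip2T/T mice, and the next highest group mean was 19425 (Fabp4, Fnip2T/T). Of the genes that fell, Adipoq, Plin1, Lep, Retn and Pnpla2 did not overlap between the genotypes, while Fabp4 and Lipe did. Over all tested genes, 26.1% did not overlap. The share among called genes alone was not computed.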
